A study of Sorghum bicolor with 4 samples.

Results

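The step from booting to the milky stage was described in the middle internode of the stem of sweet sorghum (Sorghum bicolor, variety SSV84), as the difference in transcript level per row of the deposited expression table. A row is 1 entry of that table with a locus and 1 value per stage, several rows can share a locus, and a row entered when it reached 1 FPKM or more at booting, at the milky stage or at both. FPKM is the number of fragments scaled by transcript length and by sequencing depth. Of the 34458 rows of the table, 17804 entered. By annotation, 15758 of these are rows of 1 gene ID (single-ID rows), 1158 merge several IDs and 888 have no ID.

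The study followed the internode of field-grown plants over 3 stages. Total RNA of the middle internode was taken at booting (2 libraries in the labels), at the milky stage (1 library) and at physiological maturity (1 library), all from SSV84, with no treatment named. The labels do not say how many plants entered a library. The table gives 1 value per stage with no replicate, so no value below has an SD or an n, no test was run, and the spread between plants is unknown. Rose and fell are used below for rows whose log2(FPKM + 1) differed by at least 1 between the stages, which is a rule of size.

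At booting the panicle is still enclosed in the sheath of the flag leaf, and the stem below it is completing its growth. At the milky stage the grain has begun to fill. In sweet sorghum the storage parenchyma of the internode accumulates soluble sugars, and the walls of its fibres and vessels thicken with cellulose, xylan and lignin. These points are background, and the rows below could not be assigned to such processes, because the files pair the gene IDs with no names or functions. For the same reason the tissue label could not be checked against marker genes. In whole-organ RNA, fewer cells of a type and less RNA per cell cannot be told apart.

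Most rows differed little. The log2 difference (milky minus booting) had a median of −0.02, the 25th percentile was −0.36 and the 75th 0.32, and 71.8% lay within 1.5-fold in FPKM + 1. In all, 894 rows rose, which is 5.02% of those that entered, and 1092 fell, which is 6.13%, so that 11.2% changed in either direction. Which direction was more frequent depended on scaling, since 1241 rows rose and 726 fell once both stages had the same summed FPKM. That scaling lifts the median difference to 0.16. A log2 difference of 3 or more was reached by 41 rows upward and 46 downward, and one of 4 or more by 14 and 16. The entry limit lies in a dense range of low values, since 241 rows had a higher stage value of 1 to 1.1 FPKM and 263 rows just outside had one of 0.9 to 1 FPKM.

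**Figure D1:**
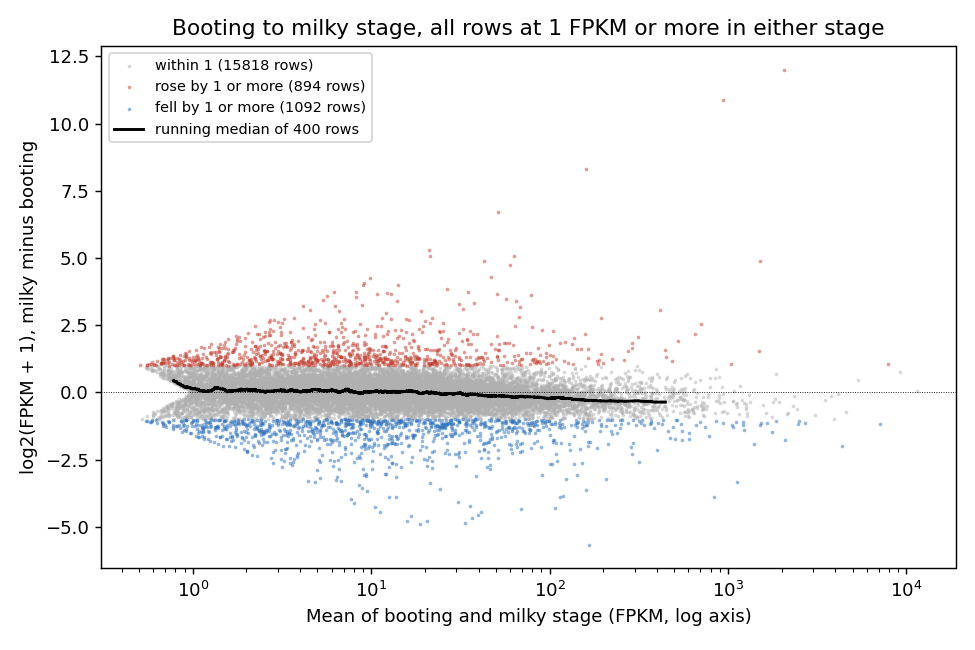
Each point is 1 of the 17804 rows, with the mean FPKM of booting and milky stage on the x axis (log scale) and the difference in log2(FPKM + 1), milky minus booting, on the y axis. Red points (894) rose and blue points (1092) fell by at least 1, and the black running median drops below 0 toward high levels.

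Most of the largest rises started from a low level. Sobic.009G116700 at 45915614 to 45916682 of chromosome 9 had 0.106 FPKM in booting internodes and 42.3 in milky-stage internodes, and Sobic.002G141800 at 23093097 to 23093995 of chromosome 2 had 0.284 and 42.6. Among the 12 single-ID rows with the largest rise and above 0 in both stages, the booting level ranged from 0.0883 to 98.1 FPKM with a median of 1.32. Their milky level ranged from 17.8 to 2946 FPKM with a median of 46.7. The log2 differences of the 12 ran from 3.75 to 5.29.

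One of these rises was of another order of abundance. The row at 70714984 to 70715693 of chromosome 3 had 98.1 FPKM in booting and 2946 in milky-stage internodes, a log2 difference of 4.89, and 2454 in mature ones. Its 2 neighbours behaved differently. On one side, 3574 bp away, the row from 70710568 to 70711410 fell from 255 to 29.3 FPKM and stood at 32.5 at maturity. On the other side, 1979 bp away, the row with several IDs from 70717672 to 70722503 had 6827, 11705 and 6558 FPKM over booting, milky stage and maturity, a first-step log2 difference of 0.78 that stayed under the limit. A steep rise, a fall and 1 of the most abundant rows of the internode thus lie side by side there.

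The 12 lay on 5 chromosomes, and their later course differed. On chromosome 1, the row from 67060894 to 67062680 went from 1.86 FPKM through 83.7 to 164 at maturity, and the row from 69932393 to 69935701 from 3.38 through 117 to 351. On chromosome 10, the row from 57283279 to 57283756 went from 2.55 FPKM to 50.7 and was back at 4.79 at maturity. Of the 12, 7 stood higher at maturity than at the milky stage and 5 lower, while all 12 stayed above their booting level. Picking rows by their rise favours a maturity value above booting.

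The largest falls started from a moderate level. Sobic.005G046700 at 4444213 to 4445054 of chromosome 5 had 327 FPKM in booting and 5.49 in milky-stage internodes, and Sobic.009G231600 at 57151986 to 57161564 of chromosome 9 had 65.8 and 1.31. Over the 12 single-ID rows with the largest fall and above 0 in both stages, the booting level ranged from 20.8 to 327 FPKM with a median of 67.3. The milky level ranged from 0.0721 to 9.55 FPKM with a median of 2.11, so none of the 12 kept 10 FPKM. The row on chromosome 3 from 1796488 to 1798901 was nearly lost, with 22.4, 0.0721 and 0.00726 FPKM in stage order.

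The falls also split at maturity. Of the 12 rows, 6 were lower at maturity than at the milky stage and 6 higher, and 1 exceeded its booting level. That row, on chromosome 2 from 13337492 to 13338174, had 59.1, 2.57 and 149 FPKM in stage order. The nearest expressed row on one side of it, 35996 bp away at 13300630 to 13301496, had the same order of stages, with 18.0, 2.28 and 30.7 FPKM. A similar pair lay on chromosome 10, where the row from 51603656 to 51604401 had 80.4, 2.74 and 20.3 FPKM and its neighbour 35287 bp away, from 51567423 to 51568369, had 26.3, 3.04 and 32.9 FPKM. Both pairs were lowest at the milky stage. On the other side a nearer row differed less in each case and did not pass the limit. It had 11.9, 9.94 and 12.9 FPKM on chromosome 2, 12362 bp away, and 53.5, 41.7 and 22.5 FPKM on chromosome 10, 15112 bp away, where maturity was lowest.

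**Figure D2:**
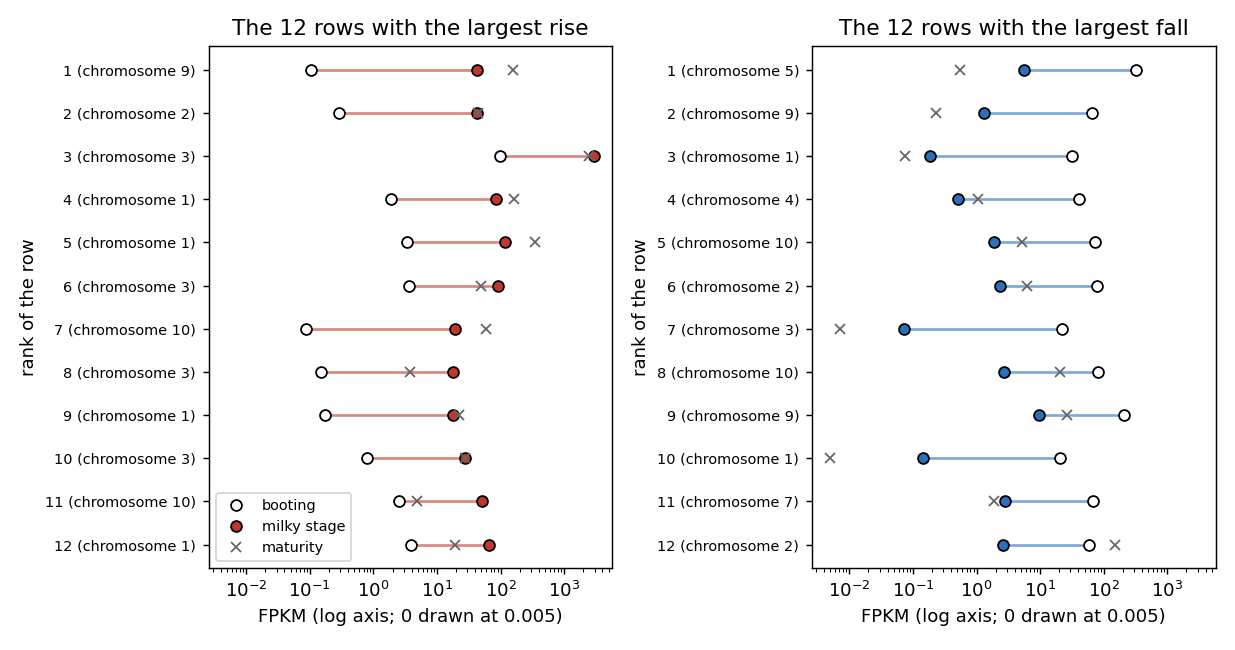
The 12 single-ID rows with the largest rise (left) and the largest fall (right), each on 1 line with its FPKM at booting (open circle), at the milky stage (filled circle) and at maturity (cross) on a log axis. The milky values of the falling rows are all at or under 9.55 FPKM, and the crosses lie on either side of the filled circles.

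Rows that crossed from near absence to clear presence were few. From under 1 FPKM at booting to 10 or more at the milky stage went 21 rows, with a median of 0.172 FPKM at booting and 18.1 at the milky stage. Of the 21, 5 were listed at exactly 0 at booting, and an exact 0 in such a table can be a failed estimate. At maturity 11 of the 21 were at 10 FPKM or more, 7 between 1 and 10, and 3 under 1. Those 3 were listed at 0 at both booting and maturity. In the opposite direction, 19 rows went from 10 FPKM or more to under 1, with medians of 17.3 and 0.423 FPKM. At maturity 9 of these were still under 1 FPKM, 8 lay between 1 and 10, and 2 were back at 10 or more. One of those 2, on chromosome 3 from 59081409 to 59083793, had 26.6, 0.878 and 26.6 FPKM in stage order.

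On the deposited scale, the balance of rises and falls went with abundance. Of 4445 rows averaging 3 to 10 FPKM over booting and milky stage, 286 rose (6.43%) and 283 fell (6.37%). Of 956 rows averaging 100 to 300 FPKM, 29 rose (3.03%) and 78 fell (8.16%). Of 62 rows averaging at least 1000 FPKM, 5 rose (8.06%) and 19 fell (30.6%), against 5.02% and 6.13% over all rows. The median log2 difference went from 0.05 at 3 to 10 FPKM through −0.13 at 30 to 100 and −0.27 at 100 to 300 to −0.58 at 1000 or more.

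The maturity value, which the difference does not use, gave the same order above 1 FPKM. Rows at 1 to 3 FPKM at maturity had a median difference of 0.07 between booting and milky stage, rows at 30 to 100 one of −0.10, and rows at 1000 or more one of −0.36. The decline in the median was thus also seen with rows sorted by a value that was not compared. The excess of falls at the top was smaller in that sorting. Of 44 rows at 1000 FPKM or more at maturity, 7 rose (15.9%) and 9 fell (20.5%), against 5.02% and 6.13% over all rows. With both stages scaled to the same summed FPKM all medians lay higher but still declined, from 0.22 at 3 to 10 FPKM through 0.07 at 30 to 100 and −0.07 at 100 to 300 to −0.38 at 1000 or more. Quantile normalization, which gives both stages the same set of values, flattens the decline by construction. The counts depended on scaling. As deposited, 43 rows averaging at least 100 FPKM rose and 129 fell, with equal summed FPKM the numbers were 54 and 65, and after quantile normalization 65 and 59.

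**Figure D3:**
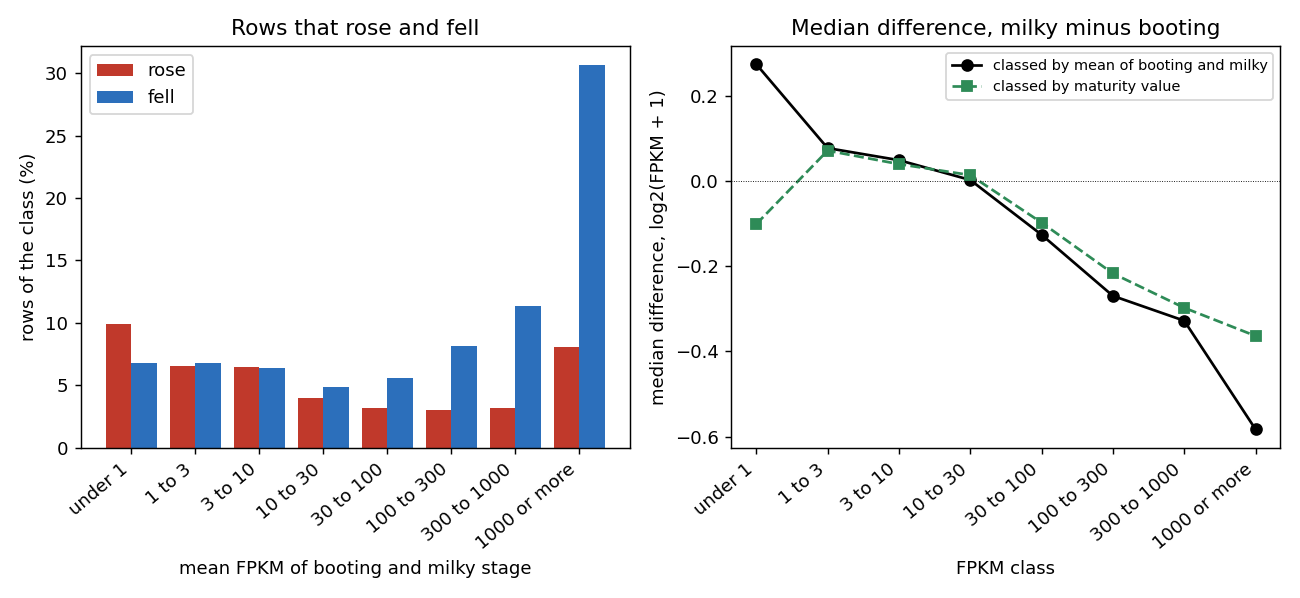
Left, the share of rows that rose (red) and fell (blue) in each class of mean FPKM, from 9.91% and 6.81% in the lowest class to 8.06% and 30.6% in the highest, on the deposited scale. The lowest class, under 1 FPKM, holds only rows with 1 stage at 1 FPKM or more and the other under 1. Its shares thus follow in part from the entry limit. Right, the median difference in log2(FPKM + 1) by class, with rows classed by the mean of booting and milky stage (black) or by their maturity value (green), both of which decline from 1 to 3 FPKM upward.

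The summed FPKM of the table dropped by 13.2% in this step, from 793091 to 688481, and was 682654 in mature internodes. Rows at 1000 FPKM or more numbered 69, 47 and 44 in these stages. The 100 rows that lost most held 40.7% of all FPKM lost between booting and the milky stage, and the 10 that lost most held 14.1%. These shares are of the 191748 FPKM lost over all rows with a lower milky value, before gains are counted, and the rows were picked by their loss. On the deposited scale, the loss was not confined to large changes. Rows that fell lost 78714 FPKM in sum, rows that neither rose nor fell lost a net 64144, and rows that rose gained 38083. FPKM is a scaled measure, so these sums are not amounts of transcript. Scaling both stages to the same summed FPKM removes the net drop by construction, and the sums were not worked out on that scale.

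Among the rows that lost most, the row on chromosome 4 from 534523 to 536909 had 9917, 4348 and 3579 FPKM in stage order. The row on chromosome 7 from 5884243 to 5885271 had 6942, 1762 and 1350 FPKM, a fall of 1.98 on the log2 scale in the first step. The steepest fall of these 10 was that of the row on chromosome 4 from 2908347 to 2912284, with 2051, 201 and 296 FPKM, and the next expressed row, 2925 bp away, had 2739, 1557 and 2213. Of the 10 rows that lost most FPKM, all were below their booting level at maturity and 9 were below their milky level. Picking rows by their loss favours a maturity value below booting.

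On the deposited scale, the top 10 rows held 28.9% of all FPKM gained, against 14.1% of all FPKM lost. For the top 100 the shares were closer, at 48.5% and 40.7%. These are shares of 86973 FPKM gained and 191748 lost, sums that depend on scaling, and the shares were not worked out on another scale. The share of gains in the top 10 includes rows listed at exactly 0 at booting, which can be a failed estimate. They are the row at 12370478 to 12374638 of chromosome 1, which gained 4107 FPKM, and the row with several IDs at 52122843 to 52228422 of chromosome 10, which gained 1879. The largest gain was on chromosome 1 from 1169606 to 1171177, where the row went from 5126 FPKM to 10735 and returned to 5337 at maturity. The row on chromosome 3 from 69212674 to 69216618 had 763, 2235 and 1072 FPKM, and the row on chromosome 3 from 5564952 to 5566326 had 207, 1202 and 501. All 10 rows that gained most had a lower value at maturity than at the milky stage, which picking rows by their gain favours. The drop was small in the row that gained 4107 FPKM, which had 4007 at maturity. Not every abundant row moved. The row with the highest mean, on chromosome 1 from 11339408 to 11340551, had 11251 FPKM in booting and 11621 in milky-stage internodes, and the row on chromosome 3 from 6108595 to 6110604 had 4207 and 4049.

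Short loci changed most often. Among single-ID rows sorted by the length of the locus on the genome, 8.98% of the shortest of 5 equal classes (159 to 2482 bp) rose and 11.9% fell. In the longest class (7551 bp or more) the shares were 3.71% and 3.49%. The shares also differed within classes of level. At a mean of 1 to 10 FPKM, 21.9% of the shortest loci and 9.43% of the longest changed, at 10 to 100 FPKM 19.4% and 5.28%, and at 100 FPKM or more 20.5% of 317 rows and 11.8% of 102 rows. As deposited, the shortest loci held more falls than rises at each of these levels. The longest loci did so only at 100 FPKM or more, where 8.82% fell and 2.94% rose. The direction in the shortest loci depended on scaling. Over all levels 11.7% of them rose and 8.83% fell once both stages had the same summed FPKM. Locus length includes introns, so it is not transcript length, and the table does not say how many fragments lay behind each value.

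**Figure D4:**
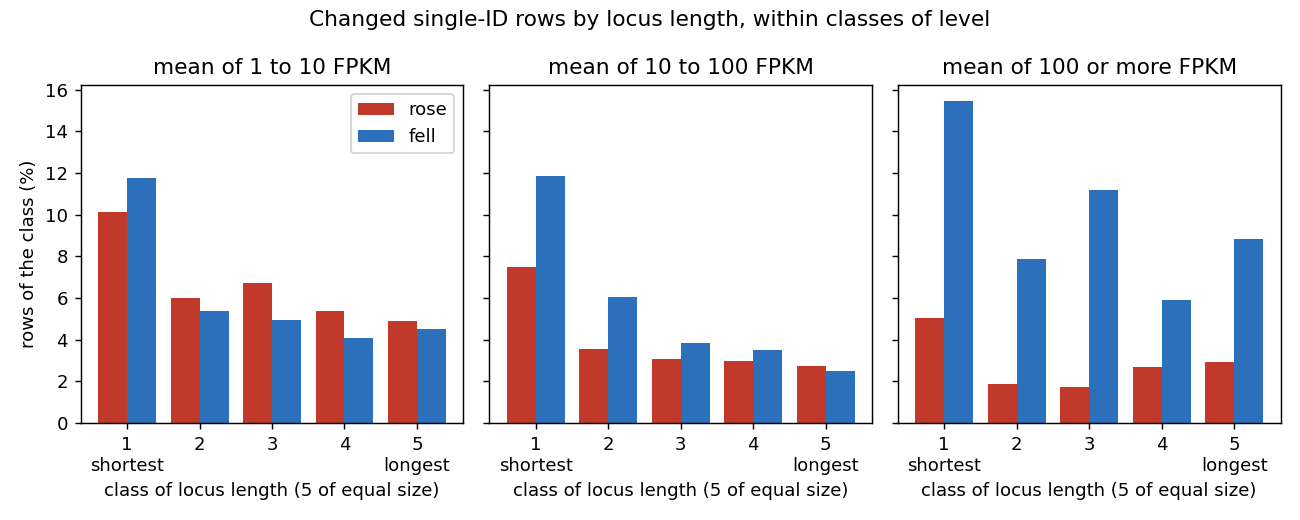
Share of single-ID rows that rose (red) and fell (blue) in each of 5 classes of locus length, from shortest to longest, for rows with a mean of 1 to 10, 10 to 100 and 100 or more FPKM. The shortest class has the highest share of falls in every panel, at 11.7%, 11.9% and 15.5% on the deposited scale.

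Rows with and without a gene ID were also set side by side. Over all levels 14.2% of rows with no ID changed, against 11.1% of single-ID rows and 8.98% of rows with several IDs. Between 1 and 10 FPKM on average, 12.6% of 597 rows with no ID and 13.2% of 6474 single-ID rows changed. Between 10 and 100 FPKM the shares were 10.6% of 189 and 8.76% of 7588, and from 100 FPKM upward only 16 rows had no ID, of which 5 changed. Gene density on the chromosomes went with little difference, since 12.1% of rows changed where at most 30 other expressed rows started within 500 kb, and 10.6% where 77 or more did. By chromosome the share ranged from 10.3% on chromosome 2 to 11.7% on chromosome 9. The lowest share of rises was on chromosome 8, at 4.08%, and the highest share of falls on chromosome 5, at 7.43% of 915 rows.

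A changed row was followed along the chromosome by a row changed the same way more often than rows in general were. Where a row fell, the next expressed row along the chromosome fell in 11.7% of cases, against 6.10% over all next rows. Where a row rose, the next rose in 8.47% of cases, against 5.16%. For falls the share was 13.6%, against 5.61% over all next rows, where the gap between the loci was at most 10 kb, and 9.90%, against 6.69%, where it was larger. For rises it was 8.55%, against 4.96%, at the shorter gaps and 8.38%, against 5.40%, at the larger ones. Of all 15569 pairs of neighbours, 68 rose together, 111 fell together and 71 changed in opposite directions. Rows that share 1 locus were left out of these counts, and none of these shares was tested.

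On the deposited scale, 3 or more successive expressed rows changed the same way in 24 places, 8 upward and 16 downward. Over all rows, 894 rose and 1092 fell. Rows that share 1 locus were again left out, so such rows can lie between successive ones. The number of places under another scaling was not worked out, and none of this was tested. One of these places joined 3 steep falls on chromosome 1. The row from 11059217 to 11059684 had 31.8, 0.184 and 0.0756 FPKM in stage order. Only 26 bp further on, a row with no ID from 11059710 to 11060226 had 37.5, 0.297 and 0.292 FPKM, so both loci dropped almost alike. The third, from 11083871 to 11085931, had 11.4, 0.858 and 0.718 FPKM. On chromosome 3, 3 rows within 61054700 to 61063313 fell from 17.3 to 0.575, from 15.2 to 2.42 and from 87.0 to 30.4 FPKM.

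On chromosome 2, 4 successive rows between 61058709 and 61078022 fell, from 5.80 to 1.31, from 23.3 to 2.96, from 10.8 to 2.91 and from 22.1 to 5.17 FPKM. On chromosome 1, 4 rows between 75289220 and 75313912 fell, the most abundant of them from 96.4 to 35.2 FPKM. Both groups of 4 consist of single-ID rows packed into 19.3 and 24.7 kb. Upward, 4 rows between 55947662 and 55995854 on chromosome 3 rose, from 0.0854 to 2.77, from 2.05 to 7.83, from 1.27 to 5.06 and from 20.1 to 73.3 FPKM, with log2 differences of 1.41 to 1.81. On chromosome 8, 3 successive rows spread over 267 kb from 17996996 rose, from 4.19 to 14.7, from 10.5 to 51.8 and from 0.201 to 4.36 FPKM. The values of similar neighbouring genes are uncertain where reads could be split between them, which was not tested.

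**Figure D5:**
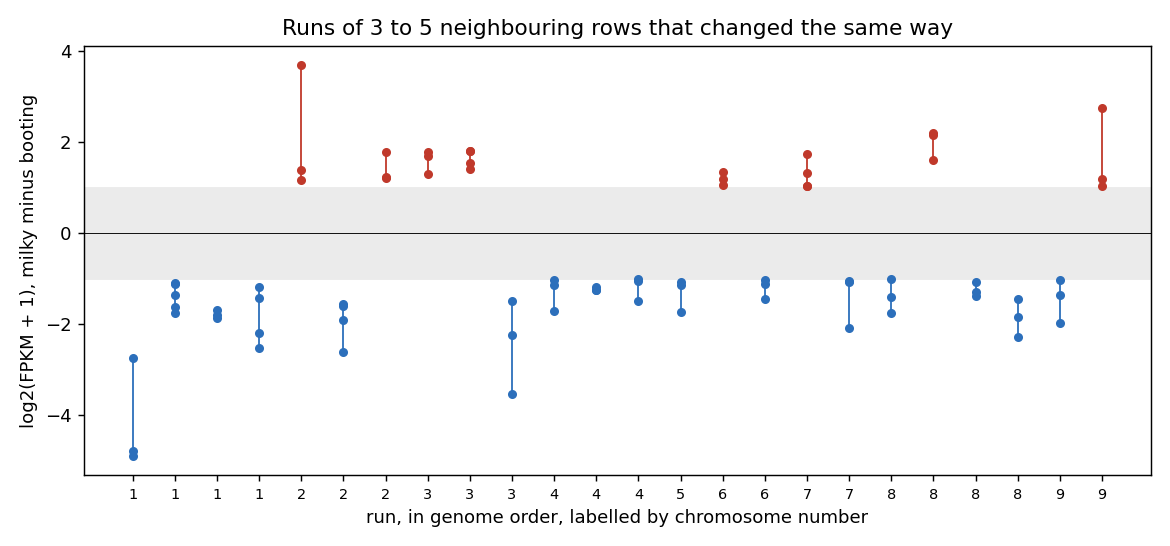
Each column is 1 of the 24 groups of 3 to 5 successive expressed rows that changed the same way, in genome order and labelled by chromosome number. Rows that share a locus were left out before groups were formed. Each point is the difference in log2(FPKM + 1), milky minus booting, of 1 row. The 8 red groups rose and the 16 blue groups fell on the deposited scale, with 1 group on chromosome 1 reaching from −2.73 to −4.89.

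In 6 rows one of the stages was listed at 0 and the other at 10 FPKM or more, and no fold is given for them. The row at 12370478 to 12374638 of chromosome 1 had 4107 FPKM in milky-stage internodes and was listed at 0 in booting ones. At 52122843 to 52228422 of chromosome 10, a row with several IDs and a row with no ID went from a listed 0 to 1879 and 320 FPKM. The other 3 share their locus with a row that was present in both stages. A row with no ID was listed at 0 and then had 103 FPKM beside the abundant row at 1169606 to 1171177 on chromosome 1, and another went from 16.1 FPKM to 0 at 56470317 to 56474560 on chromosome 8 beside a row with 5187 and 2634 FPKM. The third, with a single ID at 1316717 to 1319836 on chromosome 1, was listed at 0 and then had 12.4 FPKM, beside a row with 24.0 and 26.8.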

How the data were processed

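The deposited table holds FPKM, 1 value per row and stage, made by the authors and named so per the file headers. The submitters' processing notes name Cuffdiff, HISAT2 2.0.5, Bowtie2 2.2.9 and cutadapt 1.8.1, without their roles. The genome build, the sequencing depth and the way libraries of a stage were combined are not given in those notes or in the labels. Libraries came from a stranded total RNA kit, per the labels' protocols. Coordinates are those of the table, and 10645 row IDs end in v3.2.

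From these values, log2(FPKM + 1) was subtracted (milky minus booting) for rows with at least 1 FPKM in either stage. A difference of at least 1 was the limit for rose and fell. With 1 value per stage no test was possible. The calculation was tested on simulated data with the same number of fragments per FPKM in every row and no spread between plants. That checks the calculation alone and cannot show how reliable the calls are. An exact match of the 34129 gene IDs to RefSeq's genes for the assembly Sorghum_bicolor_NCBIv3, listed without descriptions, found 0 of them, so 0 of 48 gene lists, fixed by description, had members, and no sequence is shown. The rule for named rows took the 12 largest rises and falls among single-ID rows above 0 in both stages, the 8 highest means, and rows at 0 in one stage with 10 FPKM or more in the other. Its parts on described genes and gene lists could not be applied, and at most 2 IDs per direction are printed. Rows that lost or gained most FPKM and neighbouring groups were chosen after their values were seen. Members and lists were chosen with earlier results of these data known. Python 3.11.15, numpy 2.4.6, pandas 2.3.3 and matplotlib 3.10.9 were used.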

Additional observations from a re-analysis of the deposited data

How the results depend on the processing

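The main counts were 1986 changed rows, 894 up and 1092 down. A pseudocount of 0.1 gave 3008 (1507 up, 1501 down), which ended the excess of falls, and a pseudocount of 5 gave 847 (322 up, 525 down). A mean of at least 5 FPKM gave 1253 (516 up, 737 down), and a log2 difference of 2 gave 308 (138 up, 170 down). These moves follow from the weight of low values, the number of rows and the size asked for. Leaving out the filter changed no count and could not, since values under 1 FPKM in both stages cannot differ by 1 in log2(FPKM + 1). Rescaling by the median of ratios also changed none. Its divisors were 0.999944 for booting and 1.00006 for the milky stage, so it left the values almost as they were. Quantile normalization and single-ID rows alone left all 3 counts within 1.5 times. Chosen after seeing the data, centring on rows at like level gave 828 up and 1106 down. Scaling both stages to the same summed FPKM, also added later, raised the median by construction from −0.02 to 0.16 and turned the excess, with 1241 up (63.1% of changed rows, against 45.0%) and 726 down. The shortest of 5 classes of loci changed 2.51 to 3.85 times as often as the longest under the settings tried. Among 38 named rows no difference of at least 1 changed sign. A pseudocount or a filter on rows cannot bring such a change about, and most of these rows were picked for a large difference or a listed 0. The lack of a reversal is thus no sign of stability. The fold that the difference stands for moved by over 1.5 times in 17 rows with a pseudocount of 0.1 and in 28 with one of 5. No paired analysis was possible because only 1 value per stage exists, and for that reason fits without a booting replicate were not run. Gene list medians had no members. Low rows are limited most, since depth is unknown.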

Other observations

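Rows with no gene ID, some of which share their locus with a row that has an ID, held some of the steepest changes. The largest rise among those above 0 in both stages was at 49856931 to 49860275 of chromosome 6, which had 2.67, 124 and 58.4 FPKM over booting, milky stage and maturity. On chromosome 4 from 2596878 to 2602723 a row had 6.07, 69.7 and 0.608 FPKM, so that it was high at the milky stage alone among the 3 stage values. On chromosome 2 from 2801576 to 2802463 a row had 32.9, 0.415 and 9.69 FPKM, lowest at the milky stage.

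Rows that merge several gene IDs also reached large differences, and their values do not belong to 1 gene. On chromosome 10 from 2050828 to 2064433 such a row fell from 133 to 5.67 FPKM and had 4.87 at maturity. On chromosome 1 from 13554350 to 13577021 another fell from 298 to 23.4 FPKM and had 49.9 at maturity. On chromosome 6 from 43649936 to 43654900 a row rose from 53.7 to 221 FPKM and had 292 at maturity.

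Among 1019 loci that held more than 1 expressed row, 1 locus held both a rise and a fall. It lies on chromosome 1 from 69795046 to 69897143, where a row with several IDs went from 55.6 to 146 FPKM and a single-ID row from 13.0 to 5.94. In 9 of these loci 2 or more rows rose, and in 18 loci 2 or more fell. The loci held 2190 expressed rows, of which 90 rose and 136 fell. Together 10.3% of these rows changed, near the 11.2% over all rows. Single-ID rows whose gene number is not a multiple of 100 changed in 14.0% of 955 cases, against 10.9% of 14778 with such a number, not matched for level or length.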
